A study of Mus musculus with 5 samples.

Results

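H/ACA box small nucleolar RNAs (H/ACA snoRNAs) and small Cajal body RNAs (scaRNAs) were followed through 5 ribosome profiling libraries of mouse embryonic stem cells (mESCs). A transcript was taken as a member when its Gencode gene type was snoRNA with a symbol starting with Snora, or scaRNA, and when it reached 1 CPM (reads scaled to the library total, here adjusted by TMM factors) in at least one library after duplicate reads were removed. Of 93 such transcripts in the deposited table, 44 met this rule: 32 of 42 H/ACA snoRNAs and 12 of 51 scaRNAs. In all, 66972 transcripts reached 1 CPM. The 44 members carry 41 gene symbols, because Snora43, Snora16a and Gm25820 are each annotated as a pair of overlapping transcripts. The members were thus chosen by their CPM in these same libraries, and 16 of the 44 reached 1 CPM through AHARIBO libraries alone, while 0 did so through standard libraries alone. Just inside the limit lay Snora30, with a highest value of 1.14 CPM, and Snora47, Snora70, Snora20 and Scarna8, each at 1.20 CPM. Just outside it lay both transcripts of Gm23370 at 0.999 CPM and Snora26 at 0.962 CPM.

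All 5 libraries came from mESCs that had been given cycloheximide, an inhibitor of elongation, and whose lysates were digested for 45 min with 1.3 U of RNase I. In standard RIBO-seq (n = 3), ribosomes were pelleted through a cushion of 30% sucrose. In AHARIBO RIBO-seq (n = 2), growing peptide chains with incorporated AHA, an analogue of methionine, were biotinylated with 50 µM of a DBCO reagent and captured on magnetic beads, and no cushion is described. The labels call every library untreated, and an AHA dose is stated in the methods for proteomics and RNA-seq but not restated for these libraries. The study calls the replicates of each method independent without saying whether they were separate cultures, so that p-values measure the spread between these libraries, which may be technical. Fragments of 25 to 35 nt were sequenced in both methods. By the study's description standard RIBO-seq was made from the input, and bead capture and the use of a cushion cannot be told apart here. Each value is also a share of its library, so that more RNA of one kind and less of the others cannot be told apart. After removal of duplicates, the libraries held between 6403651 and 11150527 reads, and 3 reads, taken as the lowest level that depth can show, stood for 0.262 to 0.476 CPM. These limits cover counting error only. The 8 stem cell markers examined, Pou5f1 and Nanog among them, all exceeded 10 CPM in every library, and their sum ran from 1265 to 1361 CPM in standard and from 1158 to 1267 CPM in AHARIBO libraries. Sox2 and Klf4 were the markers that changed, and both were lower in AHARIBO. Defining genes of fibroblasts summed to between 4.30 and 6.35 CPM, those of endoderm to between 1.40 and 3.17 CPM, and those of mesoderm to between 1.55 and 2.70 CPM over the 5 libraries. Of the neuronal genes, which summed to between 37.2 and 41.8 CPM, Tubb3 alone reached 10 CPM in every library.

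H/ACA snoRNAs are short nuclear RNAs that fold into a pair of hairpins and direct the conversion of uridine to pseudouridine in ribosomal RNA. They work in a particle with the pseudouridine synthase dyskerin (Dkc1) and the proteins Nop10, Nhp2 and Gar1, and many are cut out of introns of host genes, among them ribosomal protein genes and the noncoding Snhg genes. The scaRNAs reside in Cajal bodies and guide modification of spliceosomal RNAs, and they may have H/ACA, C/D or mixed structure. Neither class is known to be translated. The H box, written ANANNA, links the hairpins, and the ACA box lies near the 3′ end.

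The sequences of 8 members are shown in the order of their difference between methods, to let the boxes be read beside the values that follow. They are the RNA strand written as DNA, from the Gencode M21 transcripts (mouse build GRCm38), and the capitals mark the ANANNA match nearest the middle and the ACA that precedes the last 3 bases.
Snora34: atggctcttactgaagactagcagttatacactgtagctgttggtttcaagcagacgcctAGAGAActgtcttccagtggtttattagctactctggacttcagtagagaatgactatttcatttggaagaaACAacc
Gm25492: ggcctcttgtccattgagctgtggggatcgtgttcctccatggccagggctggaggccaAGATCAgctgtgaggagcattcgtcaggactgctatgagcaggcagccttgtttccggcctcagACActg
Snora7a: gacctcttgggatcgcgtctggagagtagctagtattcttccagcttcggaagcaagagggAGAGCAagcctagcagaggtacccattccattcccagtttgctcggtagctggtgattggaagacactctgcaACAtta
Snora61: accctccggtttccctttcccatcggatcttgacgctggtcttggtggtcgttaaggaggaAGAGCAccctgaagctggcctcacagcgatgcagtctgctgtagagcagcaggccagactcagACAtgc
Gm26083: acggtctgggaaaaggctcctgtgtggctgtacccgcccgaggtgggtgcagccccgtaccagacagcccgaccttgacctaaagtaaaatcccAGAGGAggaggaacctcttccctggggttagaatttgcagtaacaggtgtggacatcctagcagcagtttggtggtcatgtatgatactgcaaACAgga
Snora73a: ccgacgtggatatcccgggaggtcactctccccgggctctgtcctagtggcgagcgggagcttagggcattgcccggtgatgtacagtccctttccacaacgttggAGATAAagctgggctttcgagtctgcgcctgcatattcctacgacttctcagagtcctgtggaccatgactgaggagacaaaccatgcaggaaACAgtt
Snora73b: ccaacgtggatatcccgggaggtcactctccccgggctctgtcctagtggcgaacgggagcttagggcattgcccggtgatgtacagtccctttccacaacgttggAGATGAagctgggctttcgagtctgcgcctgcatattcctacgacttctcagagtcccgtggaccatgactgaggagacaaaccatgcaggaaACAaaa
Snora24: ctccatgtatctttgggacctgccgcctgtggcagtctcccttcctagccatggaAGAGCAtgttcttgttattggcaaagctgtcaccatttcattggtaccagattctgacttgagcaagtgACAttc
Snora34 lies at chr15:98519716-98519853 on the minus strand, in the span of Kansl2. Gm25492, a scaRNA gene, lies at chr5:135053988-135054116 on the minus strand, in the span of the methyltransferase gene Bud23. Snora7a lies at chr6:115807975-115808114 on the minus strand in the ribosomal protein gene Rpl32. Snora61 lies at chr4:132310240-132310369 on the plus strand in Snhg12. The scaRNA gene Gm26083 lies at chr11:117077243-117077435 on the plus strand in Snhg20. Snora73a (chr4:132352775-132352979) and Snora73b (chr4:132352322-132352526), on the minus strand within the spans of Rcc1 and Snhg3, are copies of U17, and 198 of their 205 aligned bases (96.6%) are identical. Snora24 lies at chr3:123507937-123508066 on the minus strand in Snhg8.

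An ACA followed by exactly 3 bases closed 34 of the 44 members (77.3%), against 0 of 98 C/D box snoRNAs with a Snord symbol and 16 of 1749 other deposited transcripts of 120 to 210 nt (0.915%). The motif was searched on the RNA strand alone. ANANNA in the middle of the transcript, a looser pattern, was present in 39 of the 44 members (88.6%), in 43.9% of the Snord transcripts and in 57.1% of the other transcripts of that length. The members measured from 127 to 414 nt, with a median of 136 nt. The longest, Scarna2, a C/D-type scaRNA, has no closing ACA.

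Every one of the 44 members had a higher fitted level in AHARIBO than in standard RIBO-seq, and 25 of them passed the test, all upwards. These 25 transcripts represent 23 gene symbols. Over all 66972 transcripts, 2.27% were called higher in AHARIBO, 2.24% lower and 4.51% in either direction by the same edgeR fit. The median log2 fold change was 1.37 over the members and 0.0022 over all transcripts tested, of which 50.3% had a value above 0. In 42 of the 44 members both AHARIBO libraries lay above all 3 standard libraries, an arrangement found in 17.3% of all transcripts tested. The exceptions were the scaRNA Gm22728 and Snora47. Because the rule used these same counts, the numbers describe the members and are not a test of them. Among the 28 members that reached 1 CPM in a standard library too, 16 were called, 27 did not overlap between methods, and the median log2 fold change was 1.14. The 16 that entered through AHARIBO alone had to lean that way, and their median was 2.15.

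**Figure D1:**
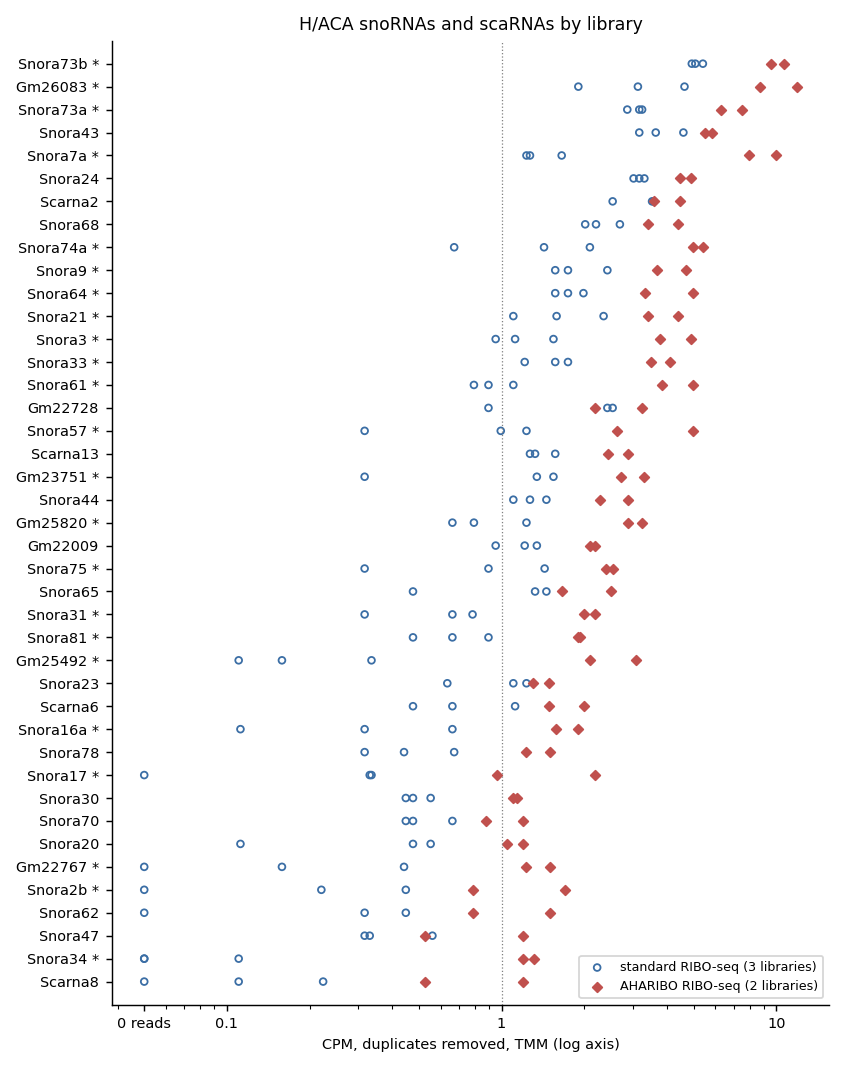
CPM of each of the 41 member symbols (the more abundant transcript where there is a pair) in each library on a log axis, with open circles for the 3 standard and filled diamonds for the 2 AHARIBO libraries. Libraries with no read are drawn at the left edge, the dotted line marks 1 CPM, and an asterisk marks an edgeR adjusted p under 0.05. The diamonds lie to the right of every circle in all rows but those of Gm22728 and Snora47.

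Summed over the 44 members, standard replicates 1, 2 and 3 held 540, 572 and 316 reads, and AHARIBO replicates 1 and 2 held 1505 and 1550. These sums were 60.0, 62.8 and 49.3 CPM in standard libraries and 135 and 155 CPM in AHARIBO libraries, here without TMM factors. The mean went from 57.4 ± 7.10 (SD, n = 3) to 145 ± 14.5 (SD, n = 2) CPM, a ratio of 2.53, and the groups did not overlap. These sums made up between 0.00493% and 0.0155% of all reads, and 38 members had at least 1 read in all 5 libraries. Both transcripts of the Snora43, Snora16a and Gm25820 pairs enter the sums. Counts are identical within the Snora16a and Gm25820 pairs and close within the Snora43 pair, so some reads are probably counted more than once. Leaving out the 25 members that share a strand and exon bases with another deposited transcript, these pairs among them, left 19 members and a ratio of 2.38.

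The U17 RNAs, which act in the cleavage of the precursor of 18S rRNA, had some of the highest CPM values. Snora73b had 44, 49 and 32 reads in the standard libraries and 109 and 107 in the AHARIBO libraries, which is 5.14 ± 0.245 CPM (SD, n = 3) and 10.1 ± 0.812 CPM (SD, n = 2). Snora73a had 29, 26 and 20 against 72 and 75 reads. For both RNAs the standard libraries lay close together, and both AHARIBO libraries were higher. The log2 fold changes were 0.97 (SE 0.16, edgeR adjusted p = 5.17e-05) for Snora73b and 1.15 (SE 0.19, adjusted p = 0.000104) for Snora73a. Of the 25-nt windows of Snora73a, 60.2% also occur in transcripts at other places, Snora73b among them, so that short reads from one could be counted on the other. Of the 44 members, 24 had such windows, and in 8 they made up over 50% of all windows, among them the called Snora81 (73.4%), Snora9 (62.4%) and Snora75 (51.4%). Snora74a, known as U19, went from 6, 19 and 9 reads to 62 and 50 (log2 fold change 1.89, SE 0.27, adjusted p = 2.60e-06), with the standard libraries more scattered.

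Guide RNAs inside ribosomal protein genes included Snora7a, the member with the lowest adjusted p. Snora7a had 11, 15 and 8 reads in standard replicates and 91 and 100 in AHARIBO, or 1.39 ± 0.235 CPM (SD, n = 3) against 8.97 ± 1.43 CPM (SD, n = 2). The lowest AHARIBO value was several times the highest standard value, and the log2 fold change was 2.66 (SE 0.22, edgeR adjusted p = 6.23e-13). Snora3, in Rpl27a, had 10, 14 and 6 against 43 and 49 reads, a log2 fold change of 1.79 (SE 0.28, adjusted p = 2.27e-05). Snora33, in Rps12, had 14, 11 and 11 against 40 and 41 reads, a log2 fold change of 1.34 (SE 0.27, adjusted p = 0.00175). These 3 RNAs were low in every standard library and high in both AHARIBO libraries. Snora64 in Rps2 and Snora21 in Rpl23 rose by 1.21 (adjusted p = 0.00339) and 1.19 (adjusted p = 0.00589) on the log2 scale. Snora68, with 18, 20 and 17 against 39 and 44 reads, did not pass (log2 fold change 0.77, SE 0.25, adjusted p = 0.0576). Of 9 members within ribosomal protein genes, 5 were called higher, where 2.27% of all transcripts tested were. The other 4 did not pass the test, among them Snora65 in Rpl12, Snora70 in Rpl10 and Snora62, or E2, in Rpsa.

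Of 11 members in the span of an Snhg gene, the U17 RNAs in Snhg3 included, 7 were called higher, standing for 6 of 10 symbols. The share called higher over all transcripts tested was 2.27%. Snora61 had 8, 10 and 5 reads in the standard and 44 and 50 in the AHARIBO libraries, a log2 fold change of 2.20 (SE 0.30, edgeR adjusted p = 8.38e-07). Snora16a, whose pair of annotated transcripts differ by 1 base in length and have identical counts, had 1, 6 and 2 against 18 and 19 reads (log2 fold change 2.18, SE 0.53, adjusted p = 0.00906). Snora44 had 13, 10 and 8 against 26 and 29 reads (log2 fold change 1.00, SE 0.32, adjusted p = 0.0598). The 3 RNAs of Snhg12 all had non-overlapping groups, with sizes that differed and with Snora44 short of the threshold. Snora9, in Snhg15, rose by 1.10 (SE 0.25, adjusted p = 0.00606). Snora24, in Snhg8, had 27, 30 and 20 against 51 and 49 reads, and its log2 fold change of 0.56 (SE 0.21, adjusted p = 0.123) did not pass. Snora78 in Snhg9, with 6, 4 and 2 against 14 and 15 reads, did not pass either. The call for Snora16a was lost without standard replicate 1 (adjusted p = 0.0920), AHARIBO replicate 1 (0.0767) or AHARIBO replicate 2 (0.0624), and its log2 fold change was 3.05 without standard replicate 2.

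Outside these hosts, the largest fitted difference belonged to Snora34, one of several guide RNAs of Kansl2, with 0, 1 and 0 reads in the standard libraries and 15 and 12 in the AHARIBO libraries. From 1 read against 27, the ratio of reads per library total was 31.3 with a 95% counting interval (exact Clopper-Pearson) from 5.16 to 1283. The edgeR log2 fold change of 4.54 (SE 0.93, adjusted p = 0.00174) depends on the prior count at such a depth. Snora2b, in the same host, had 4, 2 and 0 against 9 and 17 reads (log2 fold change 2.24, SE 0.68, adjusted p = 0.0432). Snora57 had 11, 9 and 2 against 30 and 50 reads (log2 fold change 2.03, SE 0.34, adjusted p = 9.92e-05). Snora17 had 3, 3 and 0 against 11 and 22 reads (log2 fold change 2.58, SE 0.63, adjusted p = 0.00939), and 40.7% of its windows recur in transcripts of 52 other genes. In each of these the groups were separate, with AHARIBO replicate 2 the higher of its pair in Snora2b, Snora57 and Snora17. Where a single AHARIBO library is left, the spread comes from the standard libraries alone. The call for Snora34 was lost without AHARIBO replicate 1 (log2 fold change 4.44, adjusted p = 0.0640), and that for Snora2b without AHARIBO replicate 1 (2.72, adjusted p = 0.0690) or any one of standard replicates 1 (0.0631), 2 (0.101) and 3 (0.126). The log2 fold change was 6.54 for Snora34 without standard replicate 2, which held its only standard read, and 3.10 for Snora2b without standard replicate 1. Without AHARIBO replicate 2, Snora17 and Snora2b did not reach 1 CPM and were not tested. With 1 transcript per gene, Snora2b did not pass either (log2 fold change 2.25, edgeR adjusted p = 0.0749). Snora43 had many reads and did not pass. Its longer transcript had 41, 33 and 20 against 67 and 55 reads (log2 fold change 0.56, SE 0.20, adjusted p = 0.0902).

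Of the 12 scaRNA transcripts, 6 were called higher, for 5 gene symbols, and 6 did not pass. All 12 had a log2 fold change above 0. Over all transcripts tested, 2.27% were called higher. Gm25492 had 3, 1 and 1 reads in the standard libraries and 24 and 31 in the AHARIBO libraries, a log2 fold change of 3.56 (SE 0.52, edgeR adjusted p = 3.98e-06). Gm26083 had the highest mean CPM of the scaRNAs over the 5 libraries, though in standard libraries alone Scarna2 was near it (3.22 ± 0.590 CPM, SD, n = 3). Gm26083 had 28, 42 and 12 against 100 and 119 reads, or 3.23 ± 1.37 CPM (SD, n = 3) against 10.3 ± 2.22 CPM (SD, n = 2). The log2 fold change of Gm26083 was 1.60 (SE 0.19, adjusted p = 7.31e-08). Its standard libraries scattered more than those of Snora73b, yet both AHARIBO libraries were well above them. Gm22767 in Ppp1r8 had 0, 4 and 1 against 14 and 15 reads (log2 fold change 2.64, SE 0.68, adjusted p = 0.0140). Gm25820 in Khdc4 had 11, 6 and 5 against 37 and 29 reads (log2 fold change 1.75, SE 0.34, adjusted p = 0.000726). Gm23751 in Chd4 had 12, 14 and 2 against 31 and 33 reads (log2 fold change 1.37, SE 0.33, adjusted p = 0.00961). Standard replicate 3 was the lowest library for both Gm26083 and Gm23751. The call for Gm23751 was lost without standard replicate 3 (adjusted p = 0.0630) or AHARIBO replicate 2 (0.0551), and that for Gm22767 without standard replicate 1 (0.118), AHARIBO replicate 1 (0.110) or AHARIBO replicate 2 (0.0800). The log2 fold change of Gm22767 was 2.02 without standard replicate 1 and 4.11 without standard replicate 2, and that of Gm25492 was 4.17 without standard replicate 1.

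The 6 scaRNAs that did not pass were Scarna2, Scarna6, Scarna13, Scarna8, Gm22728 and Gm22009. Scarna2, a C/D-type guide, had 32, 32 and 16 against 51 and 36 reads, a log2 fold change of 0.30 (SE 0.22, edgeR adjusted p = 0.496), the smallest of any member. Scarna6, or U88, which joins C/D and H/ACA parts, had 10, 6 and 3 against 17 and 20 reads (log2 fold change 1.13, SE 0.43, adjusted p = 0.119). Scarna13, or U93, a tandem of H/ACA units in Snhg10, had 14, 12 and 8 against 28 and 29 reads (log2 fold change 0.92, SE 0.31, adjusted p = 0.0738). Whether these differ from the scaRNAs that rose was not tested. Gm22728 in G3bp2 had 8, 22 and 16 against 37 and 22 reads, and the methods overlapped. Gm22009 in Kpna4 had 12, 11 and 6 against 24 and 22 reads, and part of its sequence recurs in transcripts of 1695 other genes. Scarna8, or U92, in Haus6, had 2, 1 and 0 against 6 and 12 reads, a ratio of reads per library total of 6.96 with a 95% counting interval from 2.03 to 36.9. Its log2 fold change was 2.65 (SE 0.89, adjusted p = 0.0733), and 3.45 without standard replicate 1.

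Per 100 nt of transcript, the levels are given for each method on its own. In standard libraries the longer Snora43 transcript had 2.74 ± 0.521 CPM per 100 nt (SD, n = 3), Snora73b 2.51 ± 0.120, Gm26083 1.67 ± 0.709 and Snora7a 0.990 ± 0.168. In AHARIBO libraries Snora7a had 6.41 ± 1.02 CPM per 100 nt (SD, n = 2), Gm26083 5.35 ± 1.15, Snora73b 4.93 ± 0.396 and the Snora43 transcript 4.08 ± 0.188. The order of these 4 means was opposite in the methods. In standard libraries Snora43 and Snora73b, and Gm26083 and Snora7a, lay closer together than the larger SD of the pair, and in AHARIBO libraries so did Snora7a and Gm26083, and Gm26083 and Snora73b. Snora34 stood at 0.0267 CPM per 100 nt in standard and 0.910 in AHARIBO libraries, and Scarna8 at 0.0851 and 0.658.

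The host gene was examined for each member with a spanning gene on its strand, which 37 of the 41 symbols had. For the comparison, the most abundant host transcript without exon bases over any H/ACA snoRNA or scaRNA was used. Where several genes spanned a member, the gene with the most abundant transcript was taken. Snora73a and Snora73b were thus set against Rcc1, not Snhg3. An Snhg3 transcript whose exons cover 77.6% of Snora73a had a log2 fold change of 0.62 (SE 0.16, edgeR adjusted p = 0.0144). Of the 31 host transcripts tested, 3 were lower and 28 did not pass, where 2.24% of all transcripts tested were called lower. The median log2 fold change of the 31 was -0.12. The lower hosts included Rps2 (-0.37, SE 0.09, edgeR adjusted p = 0.00898) and Rpl12 (-0.27, SE 0.08, adjusted p = 0.0442). The Rpl32 transcript that hosts Snora7a had a log2 fold change of -0.21 (SE 0.08, adjusted p = 0.121), against 2.66 for the snoRNA. Bud23 stood at -0.16 beside 3.56 for Gm25492, and Kansl2 at 0.06 beside 4.54 for Snora34. All 37 members with a fitted host had a larger log2 fold change than that host. These 37 are not independent, since they share 31 host transcripts and include the Snora16a and Gm25820 pairs with identical counts. Some of them reached 1 CPM through AHARIBO libraries alone and had to lean upwards. The member and its host were measured in the same libraries, and the difference between their fold changes was not tested. Host transcripts of ribosomal protein genes had a median of -0.24 (9 transcripts), those of Snhg genes -0.25 (5 transcripts) and the others, Rcc1 among them, 0.05 (17 transcripts).

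**Figure D2:**
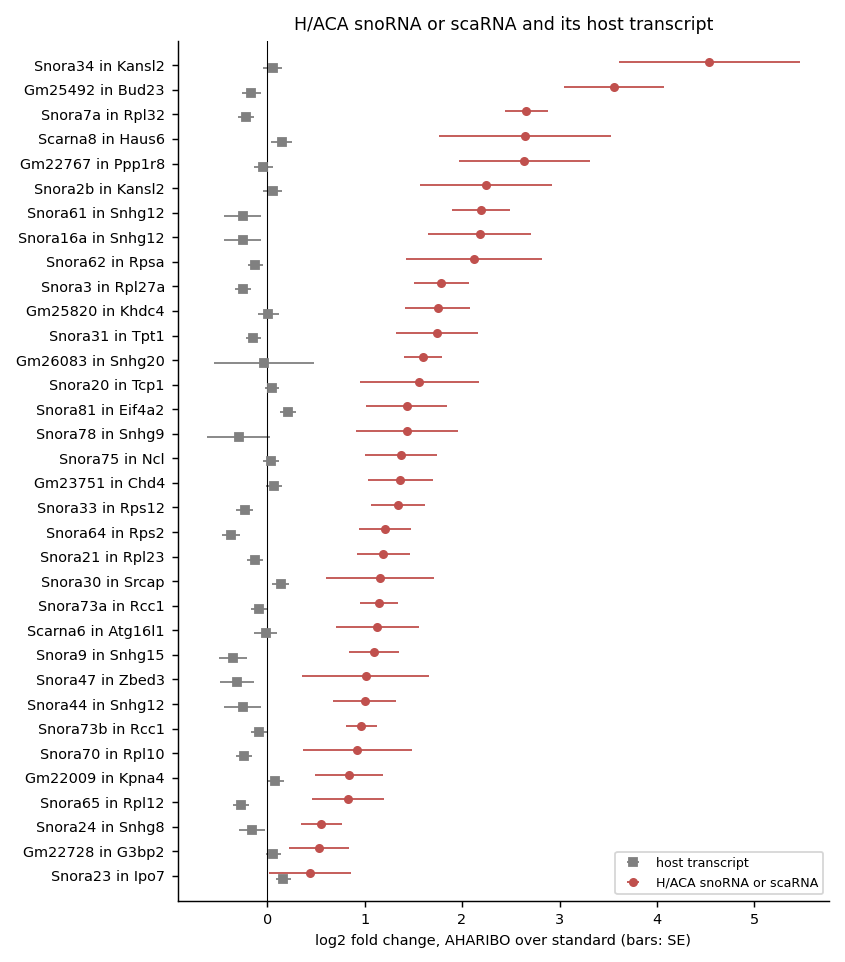
Log2 fold change (AHARIBO over standard) with its SE for each H/ACA snoRNA or scaRNA symbol with a fitted host (circles) and for its host transcript (squares), sorted by the snoRNA or scaRNA, with 1 snoRNA not drawn. The circles run from 0.44 for Snora23 to 4.54 for Snora34, and the squares stay between -0.37 and 0.22.

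Some members also lie within an exon of a longer transcript of their host, and the sources do not say how a read matching both was counted. Such exons covered 14 members in full, in 19 pairs, and in 17 of the 19 the longer transcript had at least as many reads as the member in every library. In Snhg20, a transcript that holds Gm26083 had 36, 49 and 14 against 111 and 128 reads. Taking off the reads of Gm26083 would leave 8, 7 and 2 against 11 and 9. This transcript had a log2 fold change of 1.45 (SE 0.18, edgeR adjusted p = 1.80e-07), and the Snhg20 transcript without Gm26083 one of -0.03 (SE 0.51, adjusted p = 0.985). In Snhg12, a transcript that holds Snora61 had 11, 14 and 6 against 53 and 63 reads and a log2 fold change of 2.07 (SE 0.26, adjusted p = 1.72e-07). Without the reads of Snora61 it would have 3, 4 and 1 against 9 and 13, and the Snhg12 transcript with no such exon had a log2 fold change of -0.25 (SE 0.19, adjusted p = 0.518). Another Snhg12 transcript, which by the M21 annotation covers Snora61 and Snora44 in full, had 37, 45 and 31 against 41 and 27 reads, in AHARIBO fewer than Snora61, and a log2 fold change of -0.55 (SE 0.22, adjusted p = 0.136). A further Snhg12 transcript that covers Snora61 in full lay in between. It had 53, 63 and 41 against 105 and 99 reads and a log2 fold change of 0.56 (SE 0.15, adjusted p = 0.0235). In the ribosomal protein genes, where the host reads outnumber those of the snoRNA, the transcripts holding Snora7a and Snora3 had values of -0.14 (SE 0.08) and -0.23 (SE 0.08). Covering transcripts of Snhg8, which holds Snora24, and of Snhg15, which holds Snora9, stood at 0.03 (SE 0.12) and 0.02 (SE 0.13), and that of Eif4a2, which holds Snora81, was higher in AHARIBO by 0.35 (SE 0.09, adjusted p = 0.0169).

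**Figure D3:**
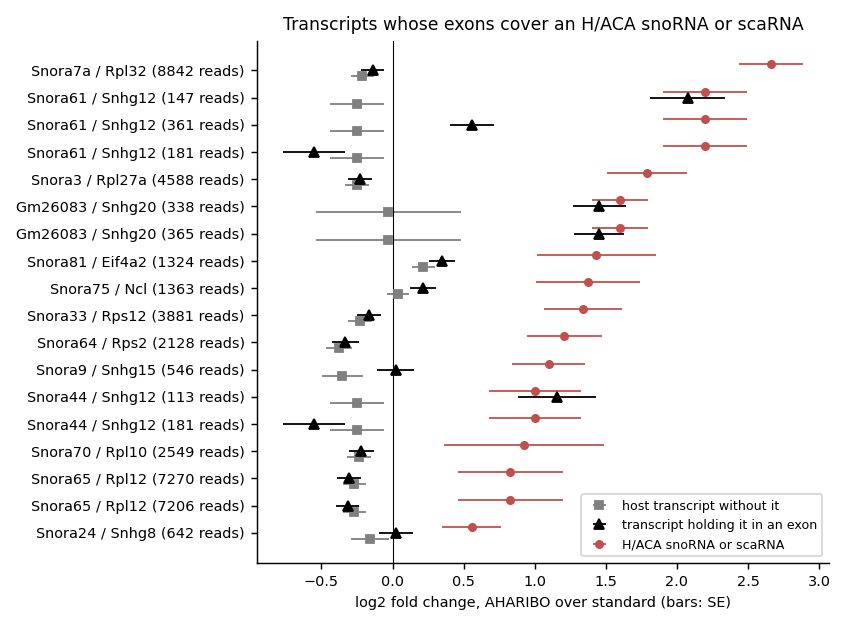
Log2 fold change with its SE for each transcript whose exon covers a member in full (triangles, with its reads summed over 5 libraries in the label), for that member (circles) and for the host transcript without such an exon (squares), with 1 snoRNA not drawn. The Snhg20 transcripts and the Snhg12 transcripts of 147 and 113 reads lie beside their snoRNA or scaRNA, while the transcripts of ribosomal protein genes lie beside the host.

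Of the reads on the members, removal of duplicates had taken 47.7%, 48.8% and 39.7% in standard replicates 1, 2 and 3, and 69.7% and 63.3% in AHARIBO replicates 1 and 2. Over all transcripts it had taken between 43.3% and 47.7%. The share on the members was therefore near that of all transcripts in standard libraries and higher in AHARIBO libraries. With duplicates kept, the members held 64.6, 69.5 and 46.0 CPM, without TMM factors, in the standard libraries and 233 in both AHARIBO libraries, and the ratio of the means went from 2.53 to 3.88. In 37 of 44 members the duplicate share was higher in AHARIBO. For Snora3 it was 30.2% in standard and 78.3% in AHARIBO, for Snora7a 10.5% and 47.2%, for Snora73b 51.0% and 79.3%, and for Gm26083 66.3% and 85.0%. Scarna2 stood at 53.2% and 58.0%, and the longer Snora43 transcript at 50.0% and 44.8%.

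Of the 39 members that reached 1 CPM with duplicates kept, 28 were called higher, where 1.92% of the 60283 transcripts tested were. These 28 include 23 of the 25 called without duplicates, and 5 that were called with duplicates alone. Snora24 passed with duplicates kept (log2 fold change 1.47, edgeR adjusted p = 0.000379), as did Snora68 (1.74, adjusted p = 0.000592), Scarna13 (1.21, adjusted p = 0.0311), Scarna6 (1.61, adjusted p = 0.0476) and Snora44 (1.32, adjusted p = 0.0278). Among members called both ways, the log2 fold change with duplicates kept was 2.19 for Snora73b, 2.58 for Snora73a, 3.40 for Snora7a, 3.48 for Snora61 and 2.77 for Gm26083. It was 4.57 for Gm25492, 4.39 for Gm22767, 5.19 for Snora34, 3.21 for Snora17 and 2.39 for Gm25820. Each of these was larger than without duplicates. Snora2b and Snora75 were called only without duplicates. The sources used here describe no molecular identifiers, and in these counts copies made in amplification and separate fragments with the same ends cannot be told apart.

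**Figure D4:**
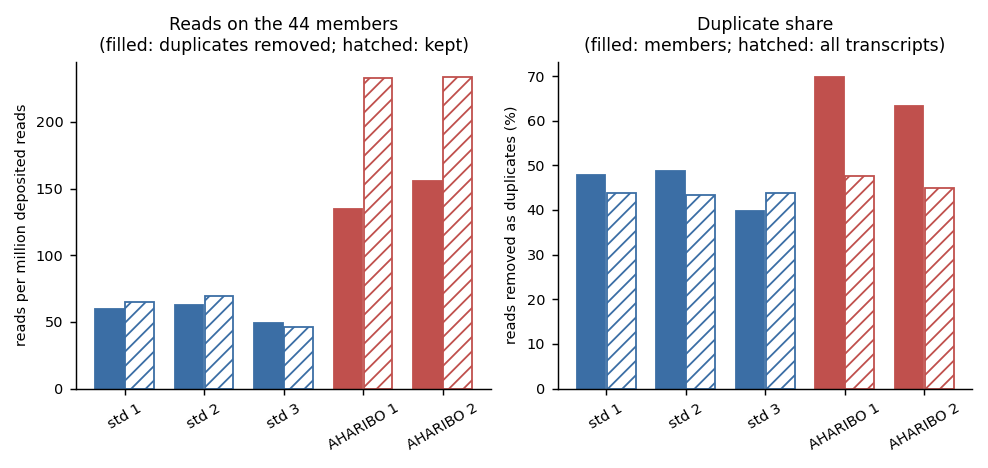
Left, CPM (without TMM factors) summed over the 44 members in each library with duplicates removed (filled) or kept (hatched). Right, the percentage of reads removed as duplicates for the members (filled) and for all transcripts (hatched). The AHARIBO libraries show 233 CPM with duplicates kept and the standard libraries at most 69.5.

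Among the 49 candidates that stayed under 1 CPM, 19 had no read in any library. With a filter of at least 10 reads in all in place of 1 CPM, 62 candidates were tested, 60 had a log2 fold change above 0 and 28 were called higher by edgeR, where 1.65% of 79651 transcripts were called higher and 51.1% had a value above 0. This filter sums over both methods. Of the 18 tested that are not members, 16 were above 0, and Snora26 (2.41, adjusted p = 0.0392) and Scarna3a (3.50, adjusted p = 0.0421) were called.

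C/D box snoRNAs with a Snord symbol, which guide ribose methylation, had 29 transcripts tested, of which 4 were called higher and the others did not pass, and a median log2 fold change of 1.31. The spliceosomal and other snRNA genes had 120 tested, of which 18 were called higher and the others did not pass, and a median of 0.45. The H/ACA members had 25 of 44 called and a median of 1.37. Over all transcripts tested, 2.27% were called higher and the median was 0.0022. With duplicates kept, the ratio of AHARIBO to standard read shares went from 1.19 to 4.50 over all 1383 deposited snRNA transcripts, tested or not. It went from 2.02 to 2.24 over all 98 Snord transcripts. For the H/ACA class it went from 2.53 to 3.88 over the 44 members and from 2.53 to 3.83 over all 93 candidates. The share of snRNA reads removed as duplicates was 79.3% to 86.7% in standard and 95.7% to 96.2% in AHARIBO libraries. Differences between these classes were not tested.

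Genes for the proteins of the H/ACA particle, and for telomerase, gave 1 call. Of 14 listed genes, all tested, 1 was lower and 13 did not pass. Over all transcripts tested, 2.24% were called lower and 4.51% in either direction. The 14 log2 fold changes ran from -0.39 to 0.42 with a median of -0.06. Naf1, an assembly factor that Gar1 replaces in the mature particle, had 520, 484 and 338 reads in the standard and 479 and 425 in the AHARIBO libraries, which is 55.1 ± 2.73 CPM (SD, n = 3) against 42.2 ± 0.376 CPM (SD, n = 2). Both AHARIBO libraries were below all standard libraries, and the log2 fold change was -0.39 (SE 0.08, edgeR adjusted p = 0.00360). The call was lost without standard replicate 1 (adjusted p = 0.0699) without AHARIBO replicate 1 (0.0585) and by DESeq2 without its filter on low means (0.113). The core proteins had values of 0.16 (SE 0.08) for Dkc1, -0.12 (SE 0.10) for Nop10, -0.22 (SE 0.08) for Nhp2 and -0.10 (SE 0.09) for Gar1. Of the Cajal body genes, Wrap53, which brings scaRNAs and telomerase RNA to that body, stood at -0.07 (SE 0.12), Coil at 0.06 (SE 0.11) and Nolc1 at 0.08 (SE 0.08). Terc, the telomerase RNA, which ends in an H/ACA domain, had 38, 63 and 20 against 84 and 59 reads, or 4.79 ± 1.95 CPM (SD, n = 3) against 6.62 ± 1.03 CPM (SD, n = 2). Its groups overlapped, and its log2 fold change of 0.42 (SE 0.20, adjusted p = 0.228) did not pass, while the catalytic subunit Tert stood at 0.21 (SE 0.20).

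The number of calls depended on the test, while every member stayed above 0 on the log2 scale under each alternative in which it was fitted. The alternatives all drew on the same 5 libraries. In 42 of the 44 members both AHARIBO libraries lay above all 3 standard libraries, so the signs had little room to change. DESeq2 gave no adjusted p for any of the 44 members, because its filter on low means left an adjusted p to 15035 of the 66972 transcripts alone. With that filter turned off, an alternative chosen after the data were seen, DESeq2 called 8 members, all higher (Snora7a, Gm26083, Snora61, Gm25492, Snora74a, Snora3, Snora57 and Snora73b), where it called 0.228% of all transcripts higher, and 30 members had an unadjusted p under 0.05, as did 6.63% of all transcripts. Leaving out AHARIBO replicate 2 brought the edgeR count from 25 of 44 to 15 of 38 tested, where 2.80% of all transcripts were called higher. A fit without an AHARIBO library has 1 sample in that group, which is then assumed to vary as the standard libraries do, so a call lost there does not show a smaller difference.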

How the data were processed

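Transcript-level read counts of 5 RIBO-seq libraries (3 standard, 2 AHARIBO) were analysed. These counts were deposited unnormalized by the authors, in columns with and without duplicate reads. According to the methods and the submitters' processing notes, reads were trimmed with Trimmomatic 0.36, reads under 20 nt or matching rRNA or tRNA were discarded, and the rest were aligned with STAR to Gencode M17 transcripts (GRCm38.p6), with antisense reads removed. The counting of reads that match more than 1 transcript is not given in the sources used here. 

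Gene types, hosts, positions and sequences came from Gencode M21, not M17, which named 134952 of 135276 transcripts. With R 4.3.3 and edgeR 4.0.16, TMM factors were computed over the whole table, transcripts reaching 1 CPM in any library were kept, and the 2 methods were compared by edgeR's quasi-likelihood test (two-sided) with Benjamini-Hochberg adjustment over all 66972 and a threshold of 0.05. Standard errors are approximations, the fold change divided by the root of F. A host was a longer gene on the same strand spanning the member. Shared sequence was counted in 25-nt windows.

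The members and gene lists were chosen with earlier results of these data known. The named transcripts were the 10 largest called rises, the 10 members of highest mean CPM, every scaRNA member, those next to the 1 CPM limit, the hosts and the 14 particle genes. Further members named in the text were chosen after their values were seen. Alternatives covered the test (DESeq2 1.42.0), the scaling, the filter, duplicates, the replicate number as a block, 1 transcript per gene, overlapping transcripts, and leaving out each library. In counts simulated for the 66972 transcripts with 200 changed, edgeR recovered 97% of 4-fold and 69% of 2-fold changes with 15 unchanged transcripts called, and DESeq2 86% and 45% with 0. The changed transcripts were drawn at any abundance, so recovery at the low counts of the members was not measured. RNA-seq, proteomics and footprint positions were not analysed here. Results for 1 host gene are not reported here.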

Additional observations from a re-analysis of the deposited data

How the results depend on the processing

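The count of 25 called members (2.27% of all transcripts were called higher) became 27 when library sizes alone scaled the counts (2.94%), 25 with DESeq2 size factors (2.11%), 28 with a filter of 10 reads in all (1.65%), 23 with 1 CPM in 2 or more libraries (2.27%), 28 with duplicates kept (1.92%) and 23 with 1 transcript per gene (2.29%). It ranged from 15 to 23 of 38 to 46 tested when single libraries were left out, where between 0.536% (without AHARIBO replicate 1) and 2.80% (without AHARIBO replicate 2) of all transcripts were called higher. DESeq2 gave no adjusted p for the members, and without its filter on low means it called 8. Restricting the members to those with 1 CPM in a standard library left 16 calls and a median log2 fold change of 1.14, and 1 transcript per symbol left 23 calls. Both restrictions, like the DESeq2 setting, were chosen after the data were seen. The number of transcripts with at least 1 CPM was 44, fell to 29 at 2 CPM and was 57 at 0.5 CPM, and ranged from 38 to 46 when single libraries were left out. The ratio of read shares was 2.53, 3.88 with duplicates kept and 2.35 to 2.71 without single libraries. The median log2 fold change was 1.37, 1.88 with duplicates kept and 1.23 to 1.53 without single libraries. The difference in duplicate share between methods was 21.1 percentage points and ranged from 17.9 to 24.3. The count of called particle genes was 1, ranged from 0 to 2 without single libraries and was 0 with DESeq2 without its filter. Fold changes of 29 named transcripts were refitted 367 times with 0 changes of sign, where the refits all drew on the same 5 libraries. Snora68 passed under scaling by library size (0.80, adjusted p = 0.0462), and Scarna8 with the filter of 10 reads (2.64, adjusted p = 0.0454). Over all transcripts, 1520 of 3021 calls were higher in AHARIBO, and 1978 of 3026 under scaling by library size. Members with 3 or fewer reads in a standard library have a wide relative counting error there, and what limited their calls was not tested.

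With the replicate number as a block, 21 members and 1 particle gene were called, where 1.45% of all transcripts were called higher. Deviations of same-numbered libraries correlated at 0.042 and -0.076. The deviations of the 2 AHARIBO libraries from their own mean mirror each other, and many counts are low. These correlations therefore cannot show whether same-numbered libraries are paired. Under the block, Snora2b (1.84, adjusted p = 0.0921) and Gm23751 (1.05, adjusted p = 0.0594) of the named transcripts were lost.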
